A study of Mus musculus with 2 samples.

Results

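Removal of mitochondria and ubiquitin-dependent turnover of proteins were followed in maturing erythroid cells through 10 genes, of 27998 genes in the count matrices. The genes are *Bnip3l*, *Gabarapl2*, *Map1lc3b*, *Ube2l6*, *Ube2h*, *Ube2o*, *Trim58*, *Fbxo7*, *Fbxo9* and *Ubac1*. They were listed by symbol and not chosen by a threshold on their values, but earlier results of these data were known. Counts of the 10 genes beside shares of all genes are therefore descriptions. Each symbol stood for 1 gene in each library. The questions were which of them keep rising into the late erythroblast clusters Ery 5 and Ery 6, and what their levels are in primitive erythroid cells.

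A maturing erythroblast stops dividing, fills with hemoglobin, expels its nucleus and then, as a reticulocyte, clears its mitochondria and most of its ribosomes. Mitochondria are removed by mitophagy, in which a receptor on the outer mitochondrial membrane, NIX, the product of *Bnip3l*, binds Atg8-family proteins on the growing autophagosome membrane. Other proteins are tagged with ubiquitin by an E1 activating enzyme, an E2 conjugating enzyme and an E3 ligase, and are then broken down by the proteasome. Definitive erythroblasts mature in the fetal liver, whereas primitive erythroid cells arise in the yolk sac and mature in the circulation.

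Cells of 1 wild-type C57BL/6 mouse liver (C57BL/6J in the methods) at E12.5, sorted to remove debris, dead cells and doublets, were profiled by droplet single-cell RNA sequencing (scRNA-seq). The protocol describes 1 suspension processed as 2 technical replicate libraries, whereas the design text of the series speaks of 2 suspensions. Because the libraries were taken as technical replicates of 1 animal, no test could be run and no p-value is given, and there was no other genotype, age or treatment to compare with. Values are unique molecular identifier (UMI) counts, in which each captured RNA molecule counts once. Clusters and cell types were those of the deposited cell table: hematopoietic stem and progenitor cells (spelled HPSC there), erythroid-committed progenitors (Ery, clusters Ery 1 and Ery 2), erythroblasts (Eryb, clusters Ery 3 to Ery 6), primitive erythroid cells (EryP), megakaryocytes (Mk), granulocytes (G), monocytes and Kupffer cells (Mo/KC), hepatoblasts (Hepa) and endothelial cells (EC). The authors built the clusters from variable genes of the same cells, so differences between clusters are descriptions.

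Library 1 held 5480 kept cells and 51969226 UMIs, and library 2 held 5057 cells and 62738015 UMIs, with medians of 6261 and 9774 UMIs per cell. The smallest kept cell had 504 UMIs in library 1 and 4387 in library 2. The libraries shared 31 cell barcodes. They differed in the part of all UMIs that came from the 8 globin genes, which went from 1.07% in Ery 1 to 58.1% in Ery 6 of library 1 and from 2.37% to 78.5% in library 2. Median UMIs per cell went from 26146 in Ery 1 to 4378 in Ery 6 of library 1 and from 25977 to 7882.5 in library 2. The Ery 6 median of library 1 thus lay below the smallest kept cell of library 2. UMIs per cell and shares of cells in the 2 libraries therefore come from cells of different depth ranges. Of the 9 marker lists, 7 had their highest summed level in their own cell type in each library. The Ery list was higher in Eryb than in Ery, with 1741 against 1106 CPM in library 1 and 1062 against 1020.5 in library 2, and the HPSC list was higher in Mo/KC than in HPSC. The summed level of the 3 embryonic globin genes was 615570 CPM in EryP against 10710 CPM in Ery 6 of library 1, and 482130 against 5910.2 CPM in library 2.

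Because globin UMIs fill the total, each level is given on more than 1 scale. CPM is the summed UMIs of a gene per 1000000 summed UMIs of a cluster. Globin-free CPM leaves the 8 globin genes out of the total. UMIs per cell divides by the number of cells only. Levels are compared between clusters and not between genes, since no gene length enters them. Intervals in parentheses are exact 95% intervals and cover counting error only. A gene was called higher or lower between groups of cells when the fold was at least 1.5 in each library and its interval excluded 1. It was called rising to Ery 6 when the steps from Ery 4 to Ery 5 and from Ery 5 to Ery 6 were each at least 1.2-fold in each library, with intervals above 1.

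The 250 bases before the RefSeq transcription start were read on GRCm38.p6 for the 8 of the 10 genes with an entry in the RefSeq promoter table, at 11 start sites. *Bnip3l* and *Ube2o* had no entry. The 4 printed here show start regions without an annotated exon inside them, for an E3 ligase, an E2 enzyme, a ligase partner and an autophagosome protein. They read 5′ to 3′ on the strand of the gene. Capitals mark matches to a GATA motif (AGATAA or TGATAA, and likewise AGATAG or TGATAG) or a CACC-type motif (CCNCNCCC), each searched on both strands, and overlapping matches form 1 run of capitals. The regions are chr11:58640215-58640464 (plus strand), chr2:84798578-84798827 (plus strand), chr2:26021761-26022010 (minus strand) and chr8:111940453-111940702 (plus strand).

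Trim58: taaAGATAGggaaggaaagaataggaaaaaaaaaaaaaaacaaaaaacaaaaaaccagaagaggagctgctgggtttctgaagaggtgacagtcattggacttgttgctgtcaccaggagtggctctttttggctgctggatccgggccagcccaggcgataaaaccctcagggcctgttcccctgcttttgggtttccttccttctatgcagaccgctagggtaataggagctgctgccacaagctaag
Ube2l6: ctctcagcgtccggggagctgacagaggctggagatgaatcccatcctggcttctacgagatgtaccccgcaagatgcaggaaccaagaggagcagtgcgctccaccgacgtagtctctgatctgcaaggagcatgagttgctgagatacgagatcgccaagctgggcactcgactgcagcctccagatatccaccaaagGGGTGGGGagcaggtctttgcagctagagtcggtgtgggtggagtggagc
Ubac1: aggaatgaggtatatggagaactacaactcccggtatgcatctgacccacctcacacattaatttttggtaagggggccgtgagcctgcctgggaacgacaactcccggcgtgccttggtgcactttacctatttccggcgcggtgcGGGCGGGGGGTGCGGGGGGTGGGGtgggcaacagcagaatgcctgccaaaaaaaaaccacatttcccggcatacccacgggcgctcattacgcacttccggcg
Gabarapl2: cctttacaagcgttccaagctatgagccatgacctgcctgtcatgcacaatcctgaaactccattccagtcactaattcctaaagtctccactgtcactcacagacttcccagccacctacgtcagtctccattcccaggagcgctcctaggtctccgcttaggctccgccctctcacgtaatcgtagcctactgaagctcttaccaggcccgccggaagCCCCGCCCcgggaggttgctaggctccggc

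*Trim58* carried 1 GATA match and no CACC-type match. *Ube2l6* and *Gabarapl2* each carried 1 CACC-type match and no GATA match, and *Ubac1* carried 4 CACC-type matches, each overlapping the next. Among all 8 genes, 2 had a GATA match and 6 a CACC-type match at some start site, and 0 had CACGTG. Counted by start site, 2 of 11 held a GATA match and 7 of 11 a CACC-type match. Of 32851 promoters of the same length, 26.5% held a GATA match, 45.9% a CACC-type match and 6.02% CACGTG. A match is a run of letters and was not tested as a binding site.

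Levels of *Ube2o* rose to Ery 6 on every scale, and those of most of the 10 genes did so once globin UMIs were set aside. By CPM, *Ube2o* alone was called rising to Ery 6, 1 of 10 genes against 0.841% of the 4875 genes tested. By globin-free CPM, 6 of 10 genes were called rising, against 4.59% of all genes: *Bnip3l*, *Ube2o*, *Ube2l6*, *Fbxo9*, *Gabarapl2* and *Map1lc3b*. With UMIs per cell it was again *Ube2o* alone, against 0.677% of all genes. Relative to the median gene of each step, 9 of 10 were called rising, all but *Ubac1*, against 7.24% of all genes. This scale took the median as exact. Of the 9, *Trim58* lies outside the 4875 genes and had 10 UMIs in Ery 5 of each library. *Ube2h* in library 2 passed their filter only with Ery 6 included. *Fbxo7* was called although its mean log2 CPM folds were −0.18 for the step to Ery 5 and −0.04 for that to Ery 6. Library 1 on its own gave 4 rising genes by CPM, and library 2 on its own gave 1. Shares of all genes were not computed for single libraries.

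For the last step alone, Ery 6 against Ery 5, 6 of 10 genes were called higher by CPM (3.94% of all genes), 8 by globin-free CPM (7.02%) and 5 by UMIs per cell (2.4%). The 5 that were higher on all 3 scales were *Bnip3l*, *Trim58*, *Ube2o*, *Ube2h* and *Map1lc3b*. *Ubac1* and *Fbxo7* were in none of these counts. Of the higher genes, *Trim58* lies outside the genes behind the shares. In library 2 *Ube2h* reached their mean of 10 CPM only with Ery 6, where it is high, included. Called lower were 0 of 10 by CPM (34.4% of all genes), 0 by globin-free CPM (24.2%) and 1 by UMIs per cell (46.2%), which was *Ubac1*.

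**Figure D1:**
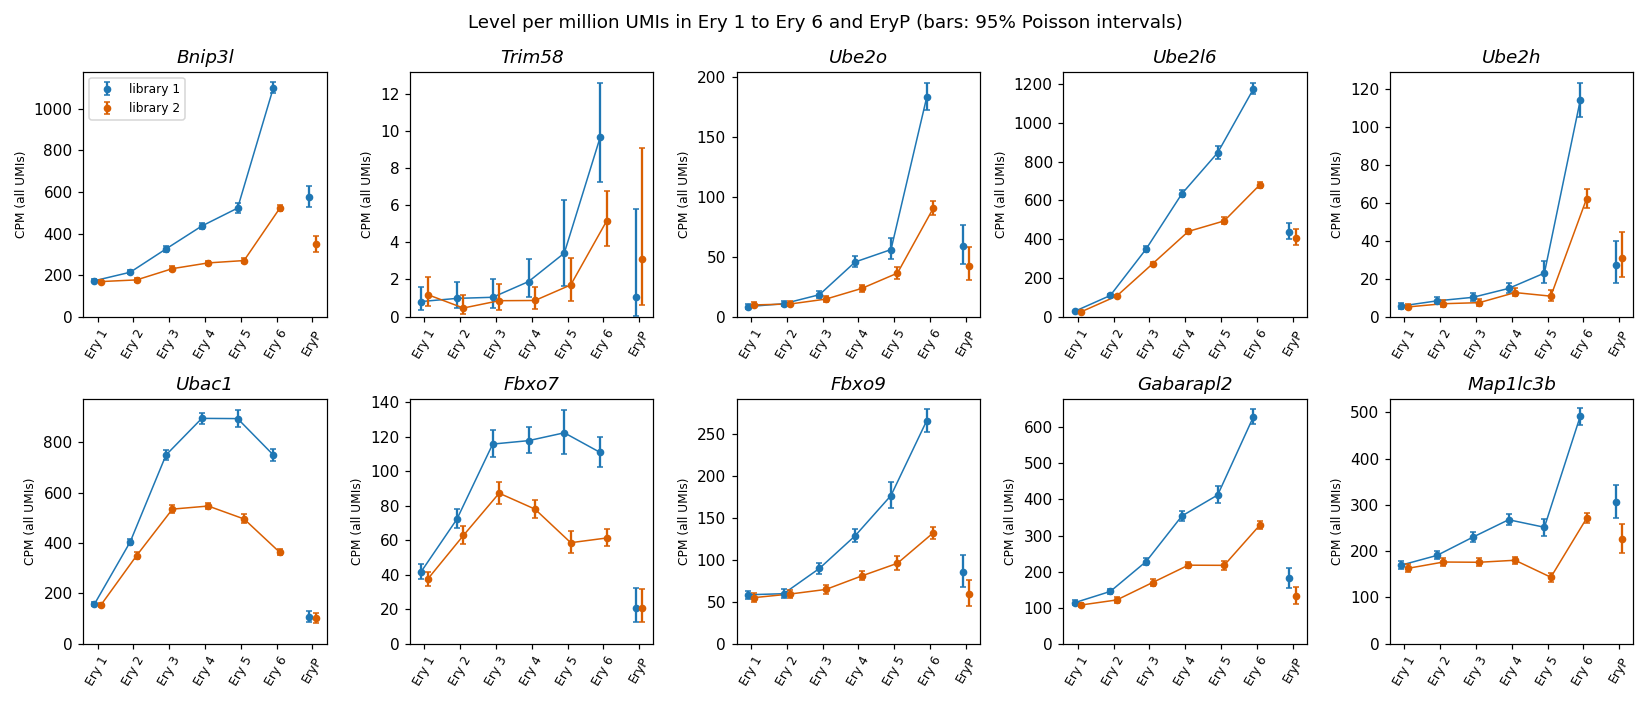
CPM (counts per 1000000 UMIs, linear axis from 0) of each of the 10 genes in Ery 1 to Ery 6 and in EryP, with 1 colour per library and 95% Poisson intervals as bars. Ube2h stands at 22.9 CPM in Ery 5 and 114 CPM in Ery 6 of library 1, whereas Ubac1 is highest in Ery 4 in both libraries.

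*Bnip3l* (chr14:66985239-67008877 on GRCm38, minus strand) encodes the mitophagy receptor NIX. In library 1 its level was 172, 213, 326, 436, 522 and 1102.5 CPM in Ery 1 to Ery 6, and in library 2 it was 168, 177, 231, 258, 269.7 and 522 CPM. Ery 6 stood highest in both libraries, and its interval did not overlap that of any other of the 6 clusters. The step from Ery 5 to Ery 6 was 2.11-fold (1.995 to 2.23) in library 1 and 1.94-fold (1.83 to 2.05) in library 2, both by CPM. The step before it, from Ery 4 to Ery 5, was 1.198-fold (1.13 to 1.27) and 1.04-fold (0.981 to 1.11). In UMIs per cell *Bnip3l* was not steadily rising. It went from 4.54 and 4.36 in Ery 1 of libraries 1 and 2 down to 2.56 and 2.48 in Ery 4, and stood at 5.15 and 4.399 in Ery 6.

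*Gabarapl2* (chr8:111940703-111953612, plus strand) and *Map1lc3b* (chr8:121590361-121598760, plus strand) encode Atg8-family proteins, which coat the autophagosome membrane and are bound by receptors such as NIX. *Gabarapl2* had 114, 145, 228, 354, 413 and 629.8 CPM in Ery 1 to Ery 6 of library 1, and 107, 122, 169.8, 218, 217 and 329 CPM in library 2. Its last step was 1.53-fold (1.43 to 1.63) and 1.51-fold (1.42 to 1.62), and its step from Ery 4 to Ery 5 in library 2 was flat, at 0.998-fold (0.932 to 1.07). *Map1lc3b* had 169.9, 191, 230.2, 268, 252 and 491 CPM over the same clusters of library 1, against 163, 177, 176, 180.4, 144 and 271 CPM in library 2. It stood lower in Ery 5 than in Ery 4 in library 2, at 0.797-fold (0.735 to 0.864), and in Ery 6 was 1.95-fold (1.799 to 2.12) and 1.89-fold (1.75 to 2.04) of its Ery 5 level. Its UMIs per cell were highest in Ery 1, at 4.47 and 4.21, and lowest in Ery 5, at 1.48 and 1.43. The annotation places *Gm20388* on the same strand and *Zcchc14* on the other strand of the *Map1lc3b* locus, and whether counting used strand is not given in the sources used here, so its reads cannot be told apart from theirs.

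Of the E2 enzymes, that of *Ube2l6* (chr2:84798828-84810335, plus strand) conjugates ubiquitin and the ubiquitin-like protein ISG15. Its level was 26.6, 109, 349, 635, 847 and 1176.5 CPM in Ery 1 to Ery 6 of library 1, and 24.02, 106, 272, 439.9, 494 and 681 CPM in library 2. It was higher at each of the 5 steps in both libraries, also in UMIs per cell, where it went from 0.701 and 0.621 in Ery 1 to 5.498 and 5.74 in Ery 6. Most of its difference lay before Ery 5, and the last step was 1.39-fold (1.33 to 1.46) and 1.38-fold (1.32 to 1.44) by CPM.

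*Ube2h* (chr6:30211289-30304539, minus strand), the E2 that works with the CTLH ligase, changed mostly at the last step. It had 5.57, 8.27, 10.1, 14.8, 22.9 and 114 CPM in Ery 1 to Ery 6 of library 1, and 5.06, 6.78, 7.33, 12.7, 10.8 and 62.3 CPM in library 2. Ery 6 was 4.97-fold (3.86 to 6.49) the level of Ery 5 in library 1 and 5.79-fold (4.46 to 7.63) in library 2. The same step by UMIs per cell was 3.95-fold (3.07 to 5.16) and 4.91-fold (3.79 to 6.47), from 0.135 and 0.107 in Ery 5 to 0.533 and 0.525 in Ery 6. From Ery 4 to Ery 5 the libraries differed in direction, with 1.55-fold (1.13 to 2.104) and 0.8498-fold (0.622 to 1.15) by CPM.

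*Ube2o* (chr11:116537740-116581447, minus strand) encodes a large enzyme with both E2 and E3 activity that marks ribosomal and other proteins for destruction in reticulocytes. Its level was 8.31, 10.7, 18.2, 45.5, 55.8 and 183 CPM in Ery 1 to Ery 6 of library 1, and 9.69, 10.5, 14.5, 23.4, 36.2 and 90.2 CPM in library 2. The step from Ery 4 to Ery 5 was 1.23-fold (1.01 to 1.48) and 1.55-fold (1.29 to 1.86), and that from Ery 5 to Ery 6 was 3.28-fold (2.78 to 3.89) and 2.49-fold (2.14 to 2.91). The lower bound of the step to Ery 5 in library 1 lies close to 1. UMIs per cell were 0.219 and 0.251 in Ery 1 and 0.856 and 0.7602 in Ery 6.

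Among ligase genes, *Trim58* (chr11:58640465-58652404, plus strand) encodes an E3 ligase that targets dynein and takes part in loss of the nucleus. It had the fewest UMIs of the 10 genes in Ery 6, 55 and 51 in libraries 1 and 2, and was the 1 gene that did not reach the mean of 10 CPM over Ery 1 to Ery 6 asked of tested genes. Its level in Ery 6 was 9.66 (7.28 to 12.6) and 5.15 (3.83 to 6.77) CPM, against 3.42 and 1.71 CPM in Ery 5 and 0.8103 and 1.18 CPM in Ery 1. Ery 6 was 2.82-fold (1.42 to 6.21) and 3.02-fold (1.51 to 6.66) the level of Ery 5. The step from Ery 4 to Ery 5 could not be resolved, at 1.82-fold (0.729 to 4.32) and 1.97-fold (0.736 to 5.27).

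*Fbxo9* (chr9:78081499-78109065, minus strand) and *Fbxo7* (chr10:86021972-86051873, plus strand) encode F-box proteins, which pick substrates for SCF ubiquitin ligases. *Fbxo9* had 58.5, 59.8, 89.9, 129, 177 and 266.5 CPM in Ery 1 to Ery 6 of library 1, and 55.1, 59.4, 64.9, 80.97, 96.1 and 132 CPM in library 2, and Ery 6 was highest in both. *Fbxo7* had 41.7, 72.2, 116, 118, 122 and 111 CPM over the same clusters of library 1, against 37.4, 62.7, 87.2, 78.02, 58.6 and 61.3 CPM in library 2. Its intervals in Ery 3 to Ery 6 of library 1 overlapped from each cluster to the next in order of level, and its last step was 0.907-fold (0.795 to 1.04) and 1.05-fold (0.915 to 1.198). UMIs per cell of *Fbxo7* were highest in Ery 2, at 1.19 and 1.19, and lowest in Ery 6, at 0.518 and 0.516. The antisense gene *A230060F14Rik* overlaps *Fbxo7*, and reads of the pair cannot be told apart without strand.

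*Ubac1* (chr2:25998543-26021747, minus strand), which encodes the partner of the E3 ligase RNF123, went the other way at the end. Its level was 157, 404, 749, 894, 893 and 749 CPM in Ery 1 to Ery 6 of library 1, and 153, 350.3, 534, 547, 495 and 363 CPM in library 2. Ery 4 was highest by CPM, and Ery 6 stood at 0.838-fold (0.798 to 0.8803) and 0.732-fold (0.697 to 0.769) the level of Ery 5. By UMIs per cell, where it was called lower, the same step was 0.666-fold (0.635 to 0.70) and 0.621-fold (0.591 to 0.653). In globin-free CPM it was 0.977-fold (0.9299 to 1.03) and 0.908-fold (0.864 to 0.954), and *Ubac1* was highest in Ery 5.

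**Figure D2:**
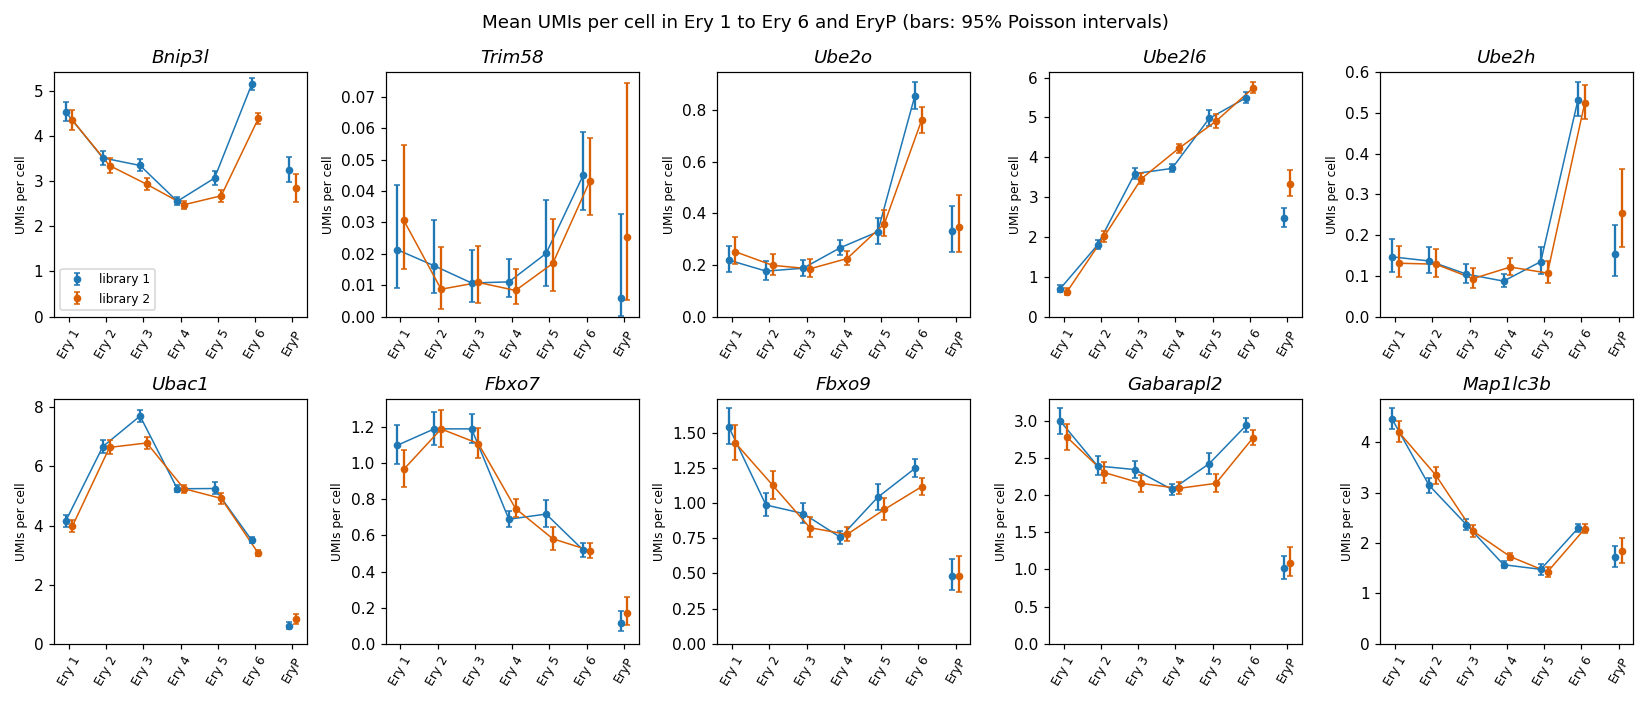
Mean UMIs per cell (linear axis from 0) of the 10 genes in Ery 1 to Ery 6 and EryP, with 1 colour per library and 95% Poisson intervals as bars. Among the 6 clusters Bnip3l has its lowest point in Ery 4, with 2.56 and 2.48 UMIs per cell.

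From the first to the last cluster, 10 of 10 genes were higher in Ery 6 than in Ery 1 by CPM, where 7.53% of all genes were called higher, and 0 of 10 were lower, where 78.3% of all genes were. Again *Trim58* lies outside the genes behind these shares. *Ube2h* in library 2 reached their mean of 10 CPM only with Ery 6, where it is high, included. The median gene changed by −2.34 and −3.25 in libraries 1 and 2 on the log2 CPM scale, by −1.10 and −1.07 in log2 globin-free CPM, and by −4.83 and −4.87 in log2 UMIs per cell. *Ube2l6* differed most among the 10, at 44.2-fold (39.04 to 50.1) and 28.4-fold (24.8 to 32.6) by CPM. *Ube2o* was at 22.04-fold (17.6 to 27.9) and 9.31-fold (7.49 to 11.7), and *Ube2h* at 20.5-fold (15.5 to 27.5) and 12.3-fold (9.14 to 16.9). The smallest differences were those of *Fbxo7*, at 2.66-fold (2.34 to 3.02) and 1.64-fold (1.43 to 1.88), and *Map1lc3b*, at 2.89-fold (2.72 to 3.07) and 1.67-fold (1.56 to 1.77). For each of the 10 genes the CPM fold was larger in library 1, where globin made up less of the Ery 6 UMIs.

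The scale decided which of these were also differences in captured molecules per cell. By globin-free CPM 10 of 10 genes were higher, against 21.7% of all genes, and 0 were lower, against 57.9%. The limits given above for *Trim58* and *Ube2h* hold for the counts on each scale. *Bnip3l* was at 15.1-fold (14.3 to 15.9) and 14.1-fold (13.3 to 14.9) on this scale, and at 6.39-fold (6.06 to 6.75) and 3.1-fold (2.93 to 3.28) by CPM. By UMIs per cell 3 of 10 were higher, against 2.71% of all genes. These were *Ube2l6* at 7.84-fold (6.93 to 8.902) and 9.24-fold (8.08 to 10.6), *Ube2o* at 3.91-fold (3.12 to 4.96) and 3.03-fold (2.44 to 3.81), and *Ube2h* at 3.63-fold (2.76 to 4.88) and 4.01-fold (2.98 to 5.51). *Fbxo7* and *Map1lc3b*, 2 of 10, were lower, against 93.7% of all genes. *Bnip3l* lay near 1 by UMIs per cell, with 1.13-fold (1.08 to 1.198) and 1.01-fold (0.954 to 1.07), and so did *Gabarapl2*, with 0.982-fold (0.918 to 1.05) and 0.998-fold (0.929 to 1.07).

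**Figure D3:**
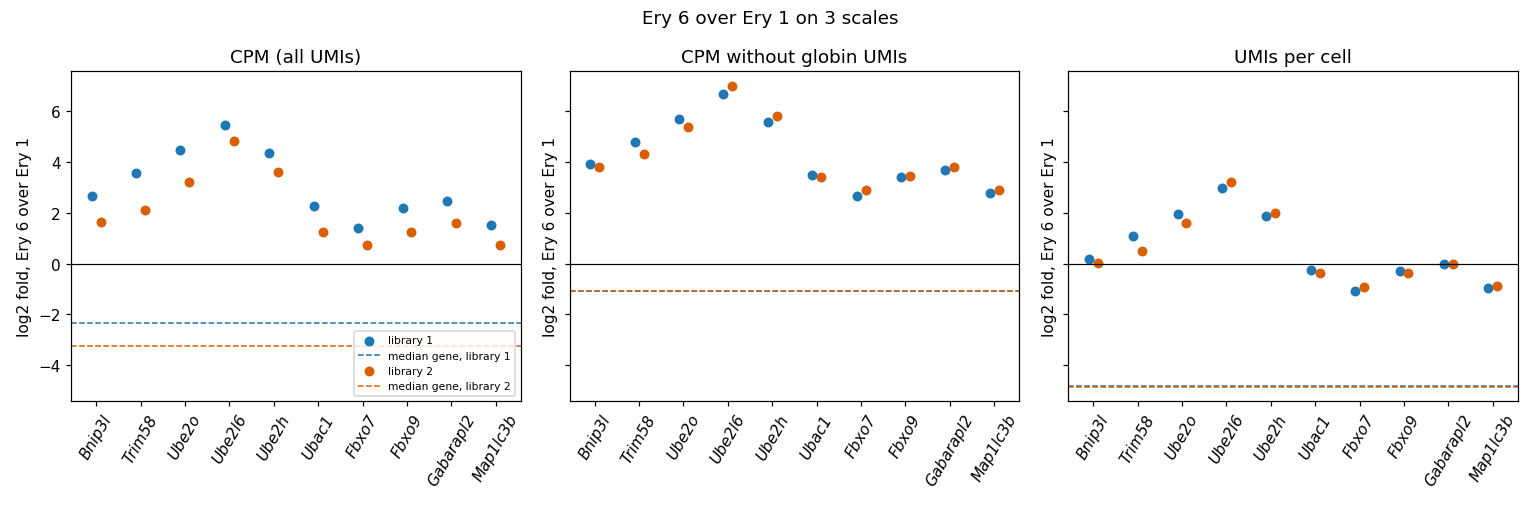
Log2 fold of Ery 6 over Ery 1 for the 10 genes by CPM, globin-free CPM and UMIs per cell, with a point per library and a dashed line at the median of all tested genes of that library. Every point lies above its dashed line, whereas by UMIs per cell only Ube2l6, Ube2o and Ube2h pass the 1.5-fold rule as higher.

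Between the broad cell types, Eryb against Ery, 8 of 10 genes were higher by CPM (7.28% of all genes), 10 by globin-free CPM (21.1%) and 3 by UMIs per cell (2.25%), the last being *Ube2o*, *Ube2l6* and *Ube2h*. *Trim58*, in the CPM and globin-free counts, lies outside the genes behind these shares. In library 1 *Ube2o* and *Ube2h* had 9.45 and 6.87 CPM in Ery. They reached the mean of 10 CPM there only with Eryb, where they are high, included. Lower were 0 by CPM (64.4%), 0 by globin-free CPM (40.0%) and 2 by UMIs per cell (92.1%), *Fbxo7* and *Map1lc3b*. These were also the genes not called higher by CPM. *Fbxo7* had 116 CPM in Eryb and 56.4 CPM in Ery of library 1, while library 2 gave 72.3 and 49.6 CPM. *Map1lc3b* had 306 and 180.0 CPM in these types of library 1, and 199 and 169 CPM in those of library 2.

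The erythroid cells were also ordered without their clusters. Cells of Ery 1 to Ery 6 were split, in each library, into 10 groups of near equal size by the adult globin part of their UMIs, which had medians of 0.787% in the lowest and 63.5% in the highest group of library 1 and 0.947% and 83.3% in library 2. *Ube2h* had 0.162, 0.261, 0.455 and 0.669 UMIs per cell in the last 4 groups of library 1, and 0.172, 0.2596, 0.456 and 0.637 in library 2. *Bnip3l* had 3.21, 3.66, 4.97 and 5.61 UMIs per cell in these groups of library 1 and 2.901, 3.46, 4.14 and 4.68 in library 2. Both genes were highest in the last group, as were *Ube2o*, *Gabarapl2* and *Trim58*. Intervals of the last group and the group before it overlapped for *Ube2o* in library 2, and for *Gabarapl2* and *Trim58* in both libraries. *Ubac1* went over these 4 groups from 5.55 to 2.05 UMIs per cell in library 1 and from 4.75 to 1.93 in library 2, and was lowest in the last. *Fbxo7* was also lowest there, with intervals that overlapped those of the group before. *Ube2l6* was highest in the ninth group, at 5.77 and 5.84 UMIs per cell, and stood at 5.36 and 5.48 in the tenth.

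**Figure D4:**
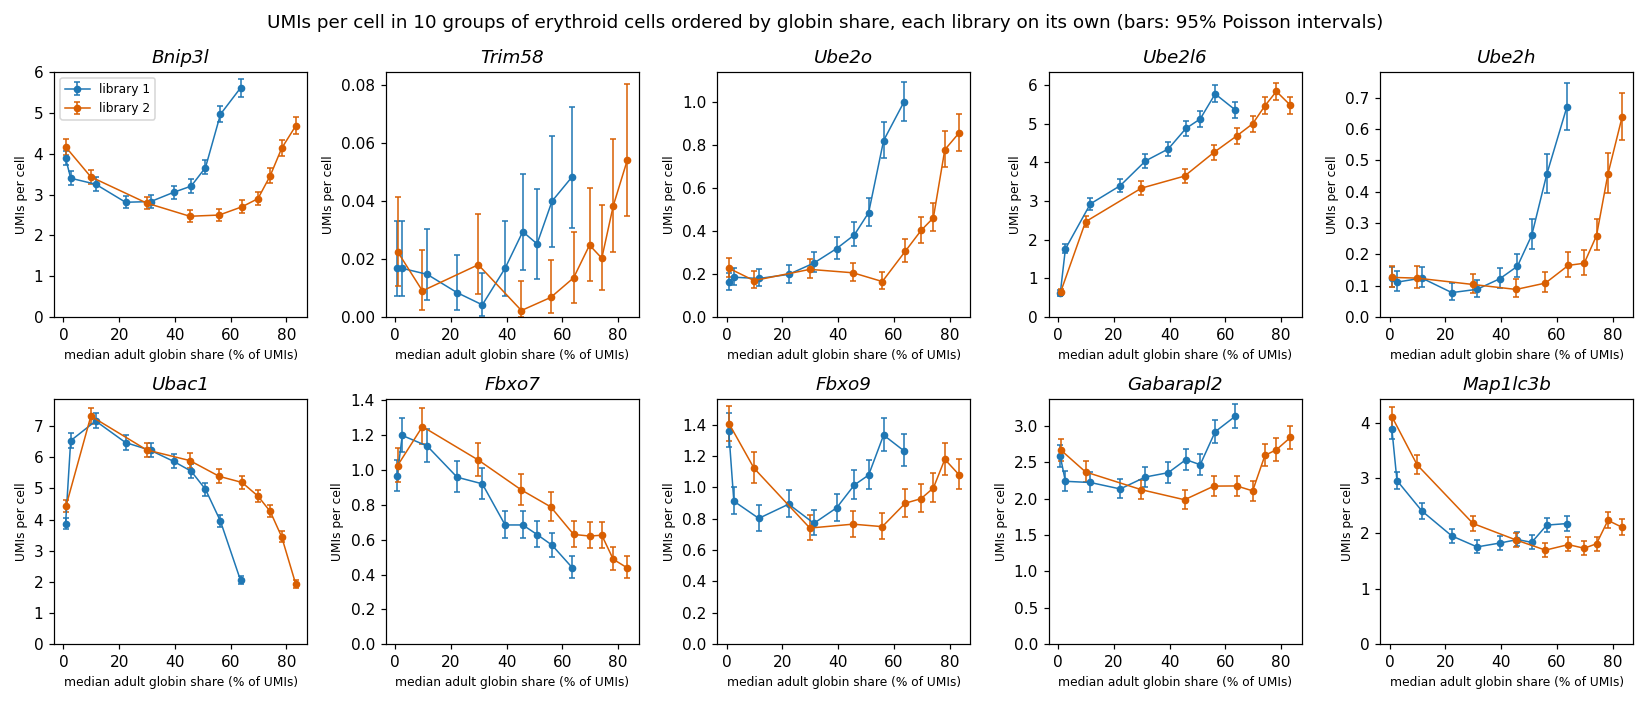
UMIs per cell (linear axis from 0) of the 10 genes in 10 groups of Ery 1 to Ery 6 cells per library, placed by the median adult globin part of their UMIs in percent, with 95% Poisson intervals as bars. Ube2h, Ube2o, Bnip3l, Gabarapl2 and Trim58 are highest in the last group of each library, where Ubac1 and Fbxo7 are lowest.

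In EryP, 0 of 10 genes were higher than in Ery 6 on any of the 3 scales, where 4.96% of the 2037 genes tested were higher by CPM, 16.2% by globin-free CPM and 7.22% by UMIs per cell. Lower in EryP were 8 of 10 by CPM, against 33.3% of all genes, and 8 by UMIs per cell, against 33.1%. By globin-free CPM 6 of 10 were lower, against 19.8%: *Ube2o*, *Ube2h*, *Ubac1*, *Fbxo7*, *Fbxo9* and *Gabarapl2*. The median gene changed by −0.87 and −0.32 on the log2 CPM scale and by −0.03 and −0.02 in log2 globin-free CPM. EryP held 170 and 118 cells, with 76.7% and 82.5% globin UMIs.

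By mean log2 fold, *Ubac1* and *Fbxo7* were the furthest below Ery 6 in EryP, at −2.33 and −1.99 by CPM. *Trim58* was at −1.97, from few UMIs in EryP, and was not called lower. *Ubac1* had 107.5 CPM in EryP against 749 in Ery 6 of library 1, and 100.5 against 363 in library 2, which is 0.144-fold (0.117 to 0.175) and 0.277-fold (0.224 to 0.339). In globin-free CPM it was 0.258-fold (0.2103 to 0.314) and 0.341-fold (0.276 to 0.417). Its EryP level by CPM was also below Ery 1, where it was 157 and 153 CPM. That order depended on the scale. In library 1 *Ubac1* had 461 globin-free CPM in EryP against 159 in Ery 1, but 0.606 UMIs per cell against 4.14. *Fbxo7* had 20.9 and 20.7 CPM in EryP, from 20 and 20 UMIs, and was 0.339-fold (0.206 to 0.528) and 0.416-fold (0.252 to 0.649) its Ery 6 level in globin-free CPM. *Gabarapl2* had 182 and 134 CPM in EryP and was 0.519-fold (0.443 to 0.604) and 0.4995-fold (0.416 to 0.596) in globin-free CPM. *Fbxo9* had 85.6 and 59.04 CPM and was 0.578-fold (0.457 to 0.722) and 0.549-fold (0.413 to 0.716) in globin-free CPM.

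The mitophagy receptor and one of its Atg8 partners stood closer to Ery 6. *Bnip3l* had 577 and 348 CPM in EryP, below the 1102.5 and 522 CPM of Ery 6, but 2476 and 1992.5 globin-free CPM against 2629 and 2428. On that scale EryP was 0.942-fold (0.862 to 1.03) and 0.821-fold (0.733 to 0.917) the level of Ery 6. In UMIs per cell the levels were 3.25 and 2.85 in EryP and 5.15 and 4.399 in Ery 6. *Map1lc3b* had 306 and 226 CPM in EryP, which was 0.623-fold (0.5503 to 0.703) and 0.833-fold (0.722 to 0.956) of Ery 6 by CPM but 1.12-fold (0.99 to 1.26) and 1.03-fold (0.889 to 1.18) in globin-free CPM, so its direction depended on the scale.

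Of the E2 genes, *Ube2l6* had 439 and 408 CPM in EryP, between Ery 3 and Ery 4 in both libraries, and was 0.672-fold (0.607 to 0.742) and 0.738-fold (0.665 to 0.817) its Ery 6 level in globin-free CPM. *Ube2o* had 58.4 and 42.5 CPM and *Ube2h* 27.1 and 31.1 CPM in EryP. In globin-free CPM EryP was 0.574-fold (0.431 to 0.752) and 0.579-fold (0.413 to 0.792) of Ery 6 for *Ube2o*, and 0.428-fold (0.278 to 0.633) and 0.614-fold (0.411 to 0.886) for *Ube2h*. Set against Ery 5 by CPM, *Ube2o* in EryP was 1.05-fold (0.759 to 1.43) and 1.17-fold (0.819 to 1.65). For *Ube2h* the same comparison gave 1.18-fold (0.722 to 1.89) and 2.89-fold (1.81 to 4.53). The place of EryP beside Ery 5 depended on the scale. In globin-free CPM the mean log2 fold of EryP over Ery 5 was 0.99 for *Ube2o*, 1.73 for *Ube2h* and 0.23 for *Ube2l6*. By UMIs per cell it was −0.02, 0.72 and −0.78. *Trim58* had 1 and 3 UMIs in EryP, and was 0.108-fold (0.00269 to 0.627) and 0.604-fold (0.1205 to 1.87) its Ery 6 level by CPM.

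Among the 9 cell types, 8 of the 10 genes had their highest CPM in an erythroid type in both libraries, against 23.1% of the 6567 genes with a mean of at least 10 CPM over the types. *Trim58* is among the 8 but lies outside these 6567 genes. In library 2 it had 3.11 CPM in EryP and 2.96 CPM in Mk, from few UMIs and with overlapping intervals. The exceptions were *Map1lc3b*, highest in EC at 385 and 316 CPM, and *Ube2h*, highest in EC of library 1 at 49.6 (26.4 to 84.8) CPM, from 13 UMIs, but in EryP of library 2. By UMIs per cell 3 were highest in an erythroid type, close to the 28.0% of all genes. By globin-free CPM all 10 were, *Trim58* with the same limits, against 34.4% of all genes. EryP was then highest in both libraries for *Bnip3l*, *Ube2o*, *Ube2l6*, *Ube2h*, *Fbxo9*, *Gabarapl2* and *Map1lc3b*, and Eryb for *Ubac1* and *Fbxo7*. Eryb pools Ery 3 to Ery 6, and Ery 6 alone stood above EryP for each of the former except *Map1lc3b*. By CPM *Bnip3l* was also highest in EryP in both libraries. *Bnip3l* was also found outside the erythroid cells, with 280.5 and 247 CPM in Mk, 282 and 226 in EC, 192 and 181 in G, 144 and 164 in Mo/KC, 141 and 109 in HPSC and 136 and 105 in Hepa. *Fbxo9* in Mk had 117 and 91.7 CPM, and its interval there overlapped that of Ery 4 in both libraries. *Ube2o* in Mk differed between libraries, with 45.5 (31.7 to 63.2) and 12.8 (6.83 to 21.9) CPM.

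**Figure D5:**
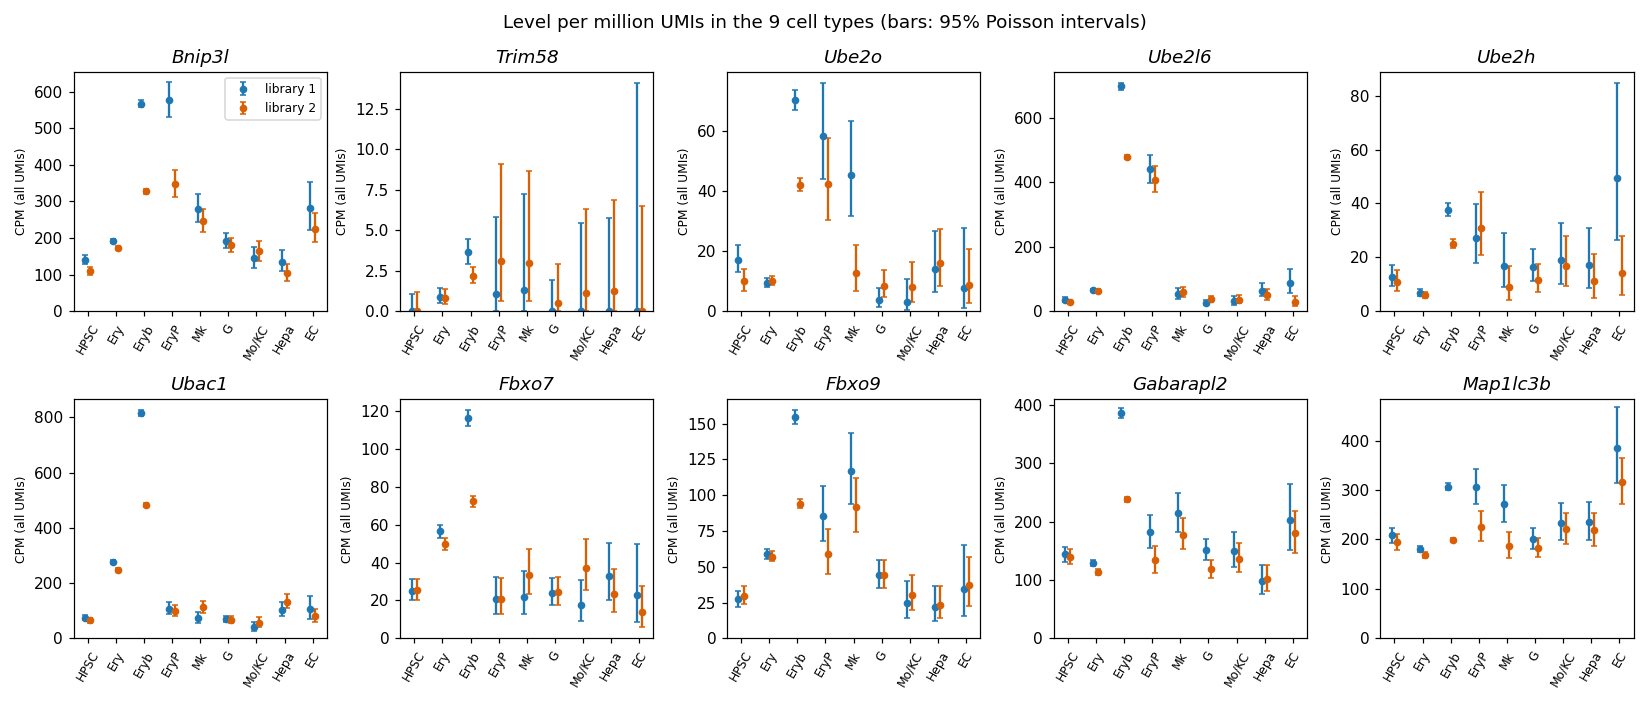
CPM (linear axis from 0) of the 10 genes in the 9 deposited cell types, with 1 colour per library and 95% Poisson intervals as bars. Ube2l6 reaches 697 and 478 CPM in Eryb, and Map1lc3b is highest in EC, at 385 and 316 CPM.

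Free RNA enters every droplet and was measured in barcodes with 1 to 50 UMIs. It held 342 and 293 CPM of *Ube2l6*, 454 and 356 CPM of *Ubac1*, and 320.1 and 263 CPM of *Bnip3l* in libraries 1 and 2. If all UMIs of the adult globin gene *Hbb-bs* in the non-erythroid types came from free RNA, it would make up 5.06% to 14.6% of their UMIs. That amount would give 46.4% to 104% of the *Ube2l6* level in these types, 22.2% to 62.1% of that of *Ubac1*, 5.89% to 25.9% of that of *Bnip3l* and 3.16% to 13.2% of that of *Map1lc3b*. *Trim58* had 0 UMIs in HPSC of both libraries, where 3 UMIs would be 0.8698 and 0.9601 CPM.

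To compare shares of cells with at least 1 UMI, UMIs of each cell were drawn down to 3600, and cells with fewer did not enter. In Ery 6 this used 981 of 1218 cells in library 1 and 1176 of 1176 in library 2, and in EryP 141 of 170 and 118 of 118. *Bnip3l* was found in 96.2% (94.8 to 97.3) and 81.7% (79.4 to 83.9) of Ery 6 cells, against 45.3% (40.2 to 50.5) and 43.2% (37.99 to 48.5) of Ery 1 cells and 82.3% (74.9 to 88.2) and 70.3% (61.2 to 78.4) of EryP cells. *Ube2l6* was found in 97.5% (96.3 to 98.3) and 88.3% (86.3 to 90.1) of Ery 6 cells and in 7.35% (3.58 to 13.1) and 14.6% (9.03 to 21.9) of G cells, where median depths were 4378 and 7882.5 UMIs in Ery 6 and 10550 and 14769 in G. *Ube2h* was found in 31.1% (28.2 to 34.1) and 19.4% (17.2 to 21.8) of Ery 6 cells, against 7.76% (5.52 to 10.5) and 4.07% (2.62 to 5.99) of Ery 5 cells and 6.62% (3.07 to 12.2) and 5.38% (2.19 to 10.8) of G cells. *Ube2o* was found in 44.04% (40.9 to 47.2) and 24.6% (22.1 to 27.1) of Ery 6 cells, against 16.1% (12.95 to 19.8) and 11.9% (9.37 to 14.8) of Ery 5 cells and 1.47% (0.179 to 5.21) and 2.31% (0.478 to 6.596) of G cells. Shares in all cells as sequenced were, in Ery 6, 97.4% and 95.2% for *Bnip3l*, 98.4% and 98.5% for *Ube2l6*, 36.2% and 36.9% for *Ube2h* and 51.1% and 48.1% for *Ube2o*. In Ery 1 the share of all cells with *Bnip3l* was 97.1% and 96.4%.

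Other genes of the same pathways were mixed, and they are given from lists that leave out the 10 genes. Of 9 tested mitophagy receptors and kinases, 3 were higher and 4 lower in Ery 6 than in Ery 1 by CPM, where 7.53% of all genes were higher and 78.3% lower. The higher ones were *Nbr1*, an autophagy receptor for ubiquitin-tagged cargo, from 6.38 and 6.89 to 42.7 and 16.9 CPM in libraries 1 and 2, *Pink1*, the kinase that marks damaged mitochondria, from 15.6 and 14.6 to 87.8 and 40.6 CPM, and *Tax1bp1*, also an autophagy receptor, from 65.9 and 65.2 to 242 and 130.1 CPM. Lowest by fold were *Phb2*, from 1065 and 1022 to 22.1 and 13.02 CPM, and *Fkbp8*, from 279.7 and 276 to 76.2 and 43.8 CPM. By globin-free CPM 1 gene of this list was called lower, against 57.9% of all genes, and *Fkbp8* was not called. The median log2 CPM fold of this list was −0.65, beside −2.80 for all genes tested.

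Of 15 tested autophagy core genes, 4 were higher and 5 lower, beside 7.53% and 78.3% of all genes, with a median log2 CPM fold of −0.07. *Atg4a*, a protease of Atg8 proteins, went from 5.67 and 7.54 to 63.9 and 43.9 CPM, and *Atg9a*, which encodes a membrane protein of the early autophagosome, from 6.28 and 4.63 to 49.9 and 30.4 CPM. *Rb1cc1*, a subunit of the kinase complex that starts autophagy, went from 13.1 and 13.1 to 66.2 and 31.2 CPM. *Atg3* and *Atg5*, needed to attach Atg8 proteins to lipid, were lower, from 100.2 and 83.9 to 8.26 and 3.23 CPM and from 54.4 and 48.7 to 7.203 and 1.92 CPM. The Atg8-family member *Gabarapl1* was also called lower by CPM, from 56.6 and 63.6 to 30.04 and 16.6 CPM, and is named here after its values were seen. Globin made up 58.1% and 78.5% of Ery 6 UMIs, against 1.07% and 2.37% of Ery 1 UMIs. With globin left out of both totals, *Gabarapl1* lay higher in Ery 6 than in Ery 1 in both libraries, by less than 1.5-fold.

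Of 32 tested E1 and E2 genes outside the 10, 3 were higher and 23 lower, which is near the 7.53% and 78.3% of all genes, with a median log2 CPM fold of −2.54. The higher ones were *Uba7*, the E1 that activates ISG15, from 5.77 and 6.68 to 60.6 and 29.5 CPM, *Ube2b*, from 118 and 97.04 to 596 and 276 CPM, and *Ube2e3*, from 165 and 148 to 508 and 248 CPM. Lowest by fold were *Ube2e1*, from 169 and 164 to 3.34 and 3.03 CPM, and *Sae1*, a subunit of the SUMO E1, from 175 and 164 to 7.38 and 4.44 CPM. By UMIs per cell 0 of these genes were higher and 30 lower, again near the 2.71% and 93.7% of all genes.

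The CTLH ligase, which takes ubiquitin from the *Ube2h* product, was split. Of 9 tested genes of this list 3 were higher and 3 lower, beside 7.53% and 78.3% of all genes, with a median log2 CPM fold of 0.40. *Ypel5* went from 6.48 and 5.82 to 226 and 117 CPM, *Ranbp10* from 11.5 and 9.69 to 144 and 60.97 CPM, and *Wdr26* from 44.5 and 38.02 to 281 and 132 CPM. Lowest by fold were *Rmnd5b*, from 44.8 and 42.97 to 2.46 and 1.21 CPM, and *Gid4*, from 29.2 and 27.6 to 1.93 and 1.31 CPM. *Ypel5* and *Ranbp10* were also higher by UMIs per cell.

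Of 14 tested further ligases and partners, 6 were higher and 7 lower, beside 7.53% and 78.3% of all genes, with a median log2 CPM fold of −0.78. *Trim10*, a TRIM-family gene of erythroid cells, went from 23.5 and 26.9 to 1094 and 525 CPM, *March2* from 63.4 and 58.4 to 865 and 394 CPM, and *Rnf11* from 18.9 and 16.8 to 229 and 112 CPM. *Rnf123*, the partner of *Ubac1*, was called higher as well, from 10.7 and 10.6 to 80.5 and 45.9 CPM, and is named after its values were seen. *Cul1*, the scaffold of the SCF ligases, was lowest by fold, from 99.1 and 93.8 to 17.2 and 6.76 CPM, with *Keap1*, from 51.1 and 55.1 to 8.43 and 4.24 CPM. Of 4 ubiquitin genes, 0 were higher and 2 lower, beside the same 7.53% and 78.3%, with a median log2 CPM fold of −1.02. Among the lower was *Rps27a*, from 4890.3 and 5666 to 640.3 and 396 CPM.

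The genes whose levels followed each of the 10 most closely were found over 13 cell groups, as Pearson's r of log2(CPM + 1) among 4421 genes, taking the smaller r of the 2 libraries. The groups share libraries, depth and globin content, so these values are descriptions. *Bnip3l* was most like *March2* (r = 0.90), *Runx1t1* (0.893), *Rnf10* (0.8598), *Riok3* (0.848) and *Dnajb4* (0.847). *Ube2l6* was most like *Hba-a1* (0.986), and *Ubac1* was most like *6030468B19Rik* (0.991). *Ube2o* was most like *Slfn14* (0.915), *Fbxo7* like *Nxpe2* (0.933), *Fbxo9* like *Ccndbp1* (0.904), *Gabarapl2* like *Sertad2* (0.889), *Ube2h* like *Serinc1* (0.841) and *Trim58* like *Epb41* (0.826). *Map1lc3b* had the weakest match, *Ube2b* (0.658). Within the 10 genes, *Ubac1* and *Fbxo7* had r = 0.982 in library 1 and 0.862 in library 2, whereas *Ube2h* and *Ubac1* had r = 0.107 and −0.05.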

How the data were processed

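Per the labels, cells of 1 E12.5 C57BL/6 liver (C57BL/6J in the methods) were sequenced as 2 technical replicate 10x libraries. The authors deposited raw UMI counts, not normalized, as a matrix of genes by barcodes for each library, with cluster and cell type names in a cell table. The submitters' processing notes name bcl2fastq 2, Cell Ranger 2.1.1, Seurat 3.2.0 and mm10, and the matrix header of library 1 names software version 3.0.0. The authors removed cells with fewer than 200 genes. Doublets were removed by sorting before encapsulation, and no caller was run here.

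UMIs were summed per cluster and library. Exact Poisson, Clopper-Pearson and conditional ratio intervals (95%) cover counting error only. Background shares came from genes with a mean of at least 10 CPM in each library. For contrasts among the erythroid clusters the mean was taken over Ery 1 to Ery 6. For EryP against Ery 6 and Eryb against Ery it was taken over the groups compared, and for the highest cell type over all types. Thinning, by 1 draw (seed 1), went to 3600 UMIs, set from the shallow cells of EryP, the type with the lowest median. The rules were tested on simulated counts for Ery 6 over Ery 1 with 4875 genes, of which 200 were changed 2-fold up or down, and 99.0% of these were recovered. The simulated counts were drawn from the Ery 1 profile with counting error only and no globin shift. They therefore cannot test the choice of scale. Gene positions are from GENCODE vM21 and promoters from RefSeq on GRCm38.p6. The 10 genes and the lists were chosen with earlier results of these data known. Named list genes are the 3 highest and 2 lowest called by mean log2 fold of Ery 6 over Ery 1, and 1 gene of a list is not reported here. Most like genes were sought among those with at least 50 CPM in a group of each library. Alternatives were each library alone, other scales, fold limits, filters on genes and cells, 10% free RNA taken away, and the mean of single-cell CPM. Calculations ran in Python 3.11.15 with scipy 1.17.1, pandas 2.3.3 and numpy 2.4.6, and plots in matplotlib 3.10.9.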

Additional observations from a re-analysis of the deposited data

How the results depend on the processing

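The liver is 1 animal, so its spread between animals is unknown, and counting intervals are the only error given. No paired analysis was possible because the design has 1 group and no comparison between groups of samples, and each contrast lies within a library. The number of genes rising to Ery 6, 1 by CPM, was 6 by globin-free CPM and 9 relative to the median gene. The 9 include *Trim58*, *Ube2h* and *Fbxo7*, with the limits given above. By the mean of single-cell CPM it was 2, and with 10% free RNA taken away it was 3. Both of these settings used the fold limit without the interval rule, so their counts follow a looser rule than the others. At 1.1-fold the number was 3 and at 1.5-fold 0. Shares of all genes were not computed for single-cell CPM, free RNA taken away or these fold limits. The counts under them therefore have no background to be read against. It ranged from 1 with library 1 left out to 4 with library 2 left out. It stayed at 1 by UMIs per cell, with a stricter cell filter, without the 4% of cells with the most UMIs and over the last 3 globin groups. Without a filter on low levels, 0.515% of all genes were rising to Ery 6 and 3.17% were higher in EryP than in Ery 6.

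By UMIs per cell, 3 genes were higher in Ery 6 than in Ery 1 (2.71% of all genes) and 3 were higher in Eryb than in Ery (2.25%). The limits given above for *Ube2h* and *Ube2o* beside these shares hold here too. Highest in an erythroid cell type were 3 genes, close to the 28.0% of all genes. At 2-fold, 5 genes were higher in Eryb than in Ery by CPM, with no share of all genes computed at that limit. The mean log2 fold of Ery 6 over Ery 1 turned by UMIs per cell to −0.31 for *Ubac1*, −0.99 for *Fbxo7*, −0.33 for *Fbxo9*, −0.014 for *Gabarapl2* and −0.92 for *Map1lc3b*. The log2 fold of Ery 6 over Ery 4 for *Ubac1* was −0.42 by CPM, 0.37 by globin-free CPM and 0.90 relative to the median gene, and that of EryP over Ery 6 for *Map1lc3b* was −0.47, 0.10 and 0.12 on these scales. For *Ube2l6* in Ery 1, taking away 10% free RNA left no value. The cause of these shifts was not tested.

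The counts of list genes higher or lower in Ery 6 than in Ery 1 also moved with the scale. By globin-free CPM, 5 mitophagy receptors and kinases were higher and 1 lower, 10 autophagy core genes were higher and 3 lower, 9 E1 and E2 genes were higher and 18 lower, 6 CTLH genes were higher and 3 lower, 7 further ligases and partners were higher and 4 lower, and 2 ubiquitin genes were higher and 1 lower, where 21.7% of all genes were higher and 57.9% lower. By UMIs per cell, 0 mitophagy genes were higher and 7 lower, 1 autophagy core gene was higher and 11 lower, 0 E1 and E2 genes were higher and 30 lower, 2 CTLH genes were higher and 6 lower, 3 further ligases and partners were higher and 8 lower, and 0 ubiquitin genes were higher and 4 lower, where 2.71% of all genes were higher and 93.7% lower. With library 2 or library 1 left out, the higher genes numbered 4 to 8 for the autophagy core, 3 to 6 for E1 and E2 enzymes, 3 to 5 for the CTLH ligase and 0 to 1 for ubiquitin genes. The share of all genes in a single library was not computed.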

Other observations

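*Bnip3*, the paralog of *Bnip3l*, had another pattern over the same cells: 38.99 and 41.8 CPM in Ery 1, 15.99 and 8.68 CPM in Ery 6, and 54.3 and 37.3 CPM in EryP of libraries 1 and 2. By CPM it was called lower in Ery 6 than in Ery 1, whereas *Bnip3l* was called higher. The EryP level of *Bnip3* by CPM lay above that of Ery 6. Globin made up 58.1% and 78.5% of Ery 6 UMIs, against 1.07% and 2.37% of Ery 1 UMIs. With globin left out of both totals, *Bnip3* in Ery 6 lay close to its Ery 1 level, within the 1.5-fold limit. *Bnip3* was named after its values were seen.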
